A study of Mus musculus with 15 samples.

Results

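The E proteins and their Id inhibitors were described at 7 of 22342 protein-coding genes: the E protein genes Tcf3, Tcf12 and Tcf4 and the inhibitor genes Id1, Id2, Id3 and Id4. The members were taken by name, and every peak within a gene body plus 100 kb on each side was counted, whatever its height. These windows, 2043845 bp in all, held 69 of 35345 CTCF peaks, 98 of 38430 and 119 of 48462 Rad21 peaks, and 96 of 38700 and 52 of 24765 H3K27ac peaks. The series concerns loop extrusion by cohesin, and the peak lists show where cohesin lies relative to CTCF and to acetylated chromatin. All 5 lists came from primary CD69-negative CD4+CD8+ thymocytes of wild type C57BL/6 thymus, with 1 library for CTCF, 2 for Rad21 and 2 for H3K27ac. The labels give neither the age of the mice nor a treatment. They do not tell separate animals from repeat libraries of one source, so that differences between replicates may be technical. The other 8 Hi-C and 2 input samples of the series were not analysed here.

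E proteins are basic helix-loop-helix transcription factors that bind the E-box as dimers. Id proteins carry the helix-loop-helix but lack the basic region, so that a dimer with an Id protein does not bind DNA. In the thymus, E proteins keep CD4+CD8+ thymocytes at their stage and act on receptor and recombination genes, and signals from the pre-T cell receptor and the T cell receptor raise Id3 through Egr factors. CTCF is a sequence-specific factor at which cohesin halts, Rad21 is a subunit of the cohesin ring, and H3K27ac is the acetyl mark that active enhancers and promoters carry.

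The marker promoters of the labelled cell carried H3K27ac and Rad21. Within 2 kb of a start, both were present in both replicates at 10 of 10 marker genes of double-positive thymocytes. Of all genes, 40.9% had H3K27ac in both replicates and 29.7% had Rad21 in both. In both replicates H3K27ac marked 0 of 5 myeloid genes and 0 of 5 thymic stroma genes, and Rad21 marked 0 of 5 and 2 of 5. The stroma count for Rad21, 40% of the list, was not below the share of all genes. In replicate 1 alone, H3K27ac also lay at Itgam of the myeloid list (fold 2.23) and at Epcam of the stroma list (7.03). The libraries are of bulk cells, so a mark in few cells and a weak mark in many cannot be told apart. Peak lists hold no read counts, so depth and counting error are unknown, and heights are given as the fold enrichment over local background that the authors' caller wrote. They rank peaks within a list, and where the replicates' folds of a region are set side by side that is a description. A region is called shared when peaks of both replicates overlap in it, and its width is that of the merged peaks.

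At the promoters, within 2 kb of the start of a protein-coding transcript, cohesin was found without CTCF. A shared Rad21 region lay at 5 of 7 members (Tcf3, Tcf12, Tcf4, Id2 and Id3), beside 29.7% of all protein-coding genes. A shared H3K27ac region lay at 4 of 7 (Tcf3, Tcf12, Tcf4 and Id3), beside 40.9% of all genes. CTCF lay at 0 of 7 members, beside 23.7% of all genes. Rad21 without CTCF was thus found at 5 of 7 members, beside 11.9% of all genes. With 7 genes these counts were not tested. With a −log10 q of at least 5 asked of all lists, H3K27ac was found at 2 promoters (Tcf3 and Tcf12). Without that limit, CTCF was found within 5000 bp at 4 members (Tcf3, Tcf4, Tcf12 and Id2). The share of all genes at that length is not given. The CTCF folds were 13.4 at Id2 and 7.20 near the internal starts of Tcf4. They were 3.55 near an internal start of Tcf3 (−log10 q of 0.656) and 2.61 and 2.35 at Tcf12 (−log10 q of 0).

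The members fell into 3 promoter patterns. Acetylation with Rad21 and without CTCF, as at the E protein genes and Id3, was found at 11% of all genes. Rad21 with neither H3K27ac nor CTCF, as at Id2, was found at 0.958% of all genes, 214 in number. None of the 3 marks in shared form was found at Id1 and Id4, as at 50.5% of all genes. In the replicate 2 list alone, Rad21 was also present at Id1, so that this list had a promoter peak at 6 of 7 members (42.1% of all genes), and the replicate 1 list had one at 5 of 7 (34.6%). The H3K27ac lists of replicates 1 and 2 each marked 4 of 7, beside 43.9% and 42.3% of all genes.

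In height the promoter cohesin was ordinary. The highest Rad21 fold at a promoter was 7.39 in replicate 1 and 6.03 in replicate 2 at Tcf3. It was 11.3 and 12.3 at Tcf12 and 11.2 and 8.78 at Tcf4. Among the inhibitors it was 8.93 and 12.1 at Id2 and 6.64 and 8.78 at Id3. The 12.1 at Id2 is of a replicate 2 peak without a partner, and the shared region there had 8.93 and 9.04. The median over all genes with a promoter peak was 7.25 and 7.61, so Tcf12, Tcf4 and Id2 lay above it in both replicates, Id3 in replicate 2 only and Tcf3 in replicate 1 only.

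**Figure D1:**
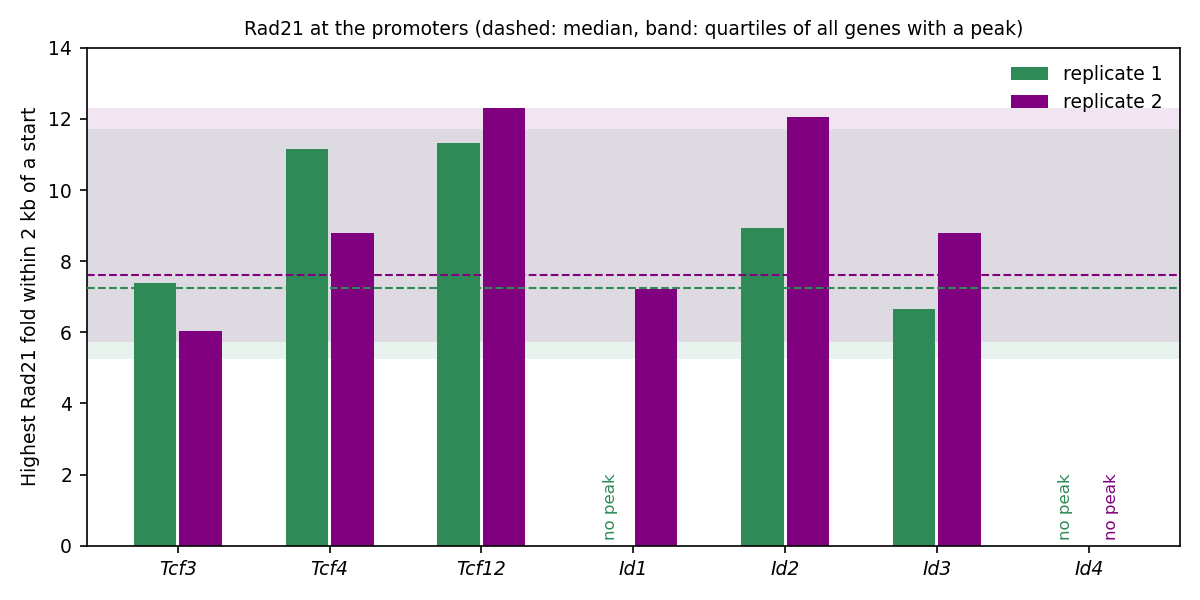
Highest Rad21 fold within 2 kb of a start at each member, in replicate 1 (green) and replicate 2 (purple), with the median (dashed) and quartiles (band) of all genes with a peak in that list. The highest bar was 12.3 at Tcf12, and Id4 had no peak in either list.

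The loci differed widely in how much cohesin surrounded them. The Id3 window held 10.9 shared Rad21 regions per 100 kb, the Id1 window 9.94 and the Tcf3 window 7.58, more than 99.1%, 98.5% and 95.0% of all protein-coding genes. The Id2, Tcf12 and Tcf4 windows held 2.47, 1.92 and 1.65 per 100 kb, close to the median of 1.98 over all genes. The Id4 window held none. CTCF had the same 3 loci on top, with 8.41 peaks per 100 kb at Id3, 7.58 at Tcf3 and 6.96 at Id1, beside a median of 2.41. The densities describe loci and not the members alone, since 29 of the 82 shared Rad21 regions had a member's start as their nearest protein-coding start. By that count the 9 regions at Tcf4 all belonged to it, and at Id1 it was 1 of 20. At Id3 the outermost region inside the limit of 100 kb lay 89.8 kb from the gene, with folds of 18.6 and 40.8. The next outside lay 114.7 kb away, with folds of 35.1 and 10.2. With flanks of 200 kb the Id3 window held 30 shared regions in place of 22. The Tcf3 window then held 32 in place of 17, and the Id1 window 24 in place of 20.

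**Figure D2:**
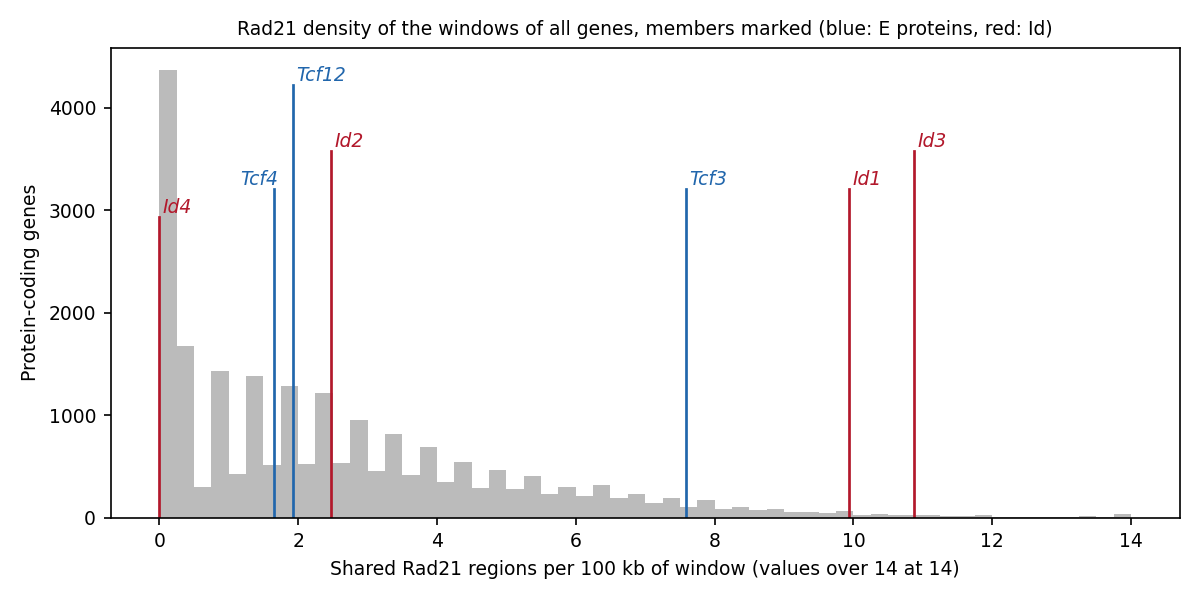
Shared Rad21 regions per 100 kb of window for all 22342 protein-coding genes (grey, number of genes) with the members as lines (blue for E proteins, red for Id genes). Id3, Id1 and Tcf3 stand in the thin right end, and Id4 at 0.

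**Figure D3:**
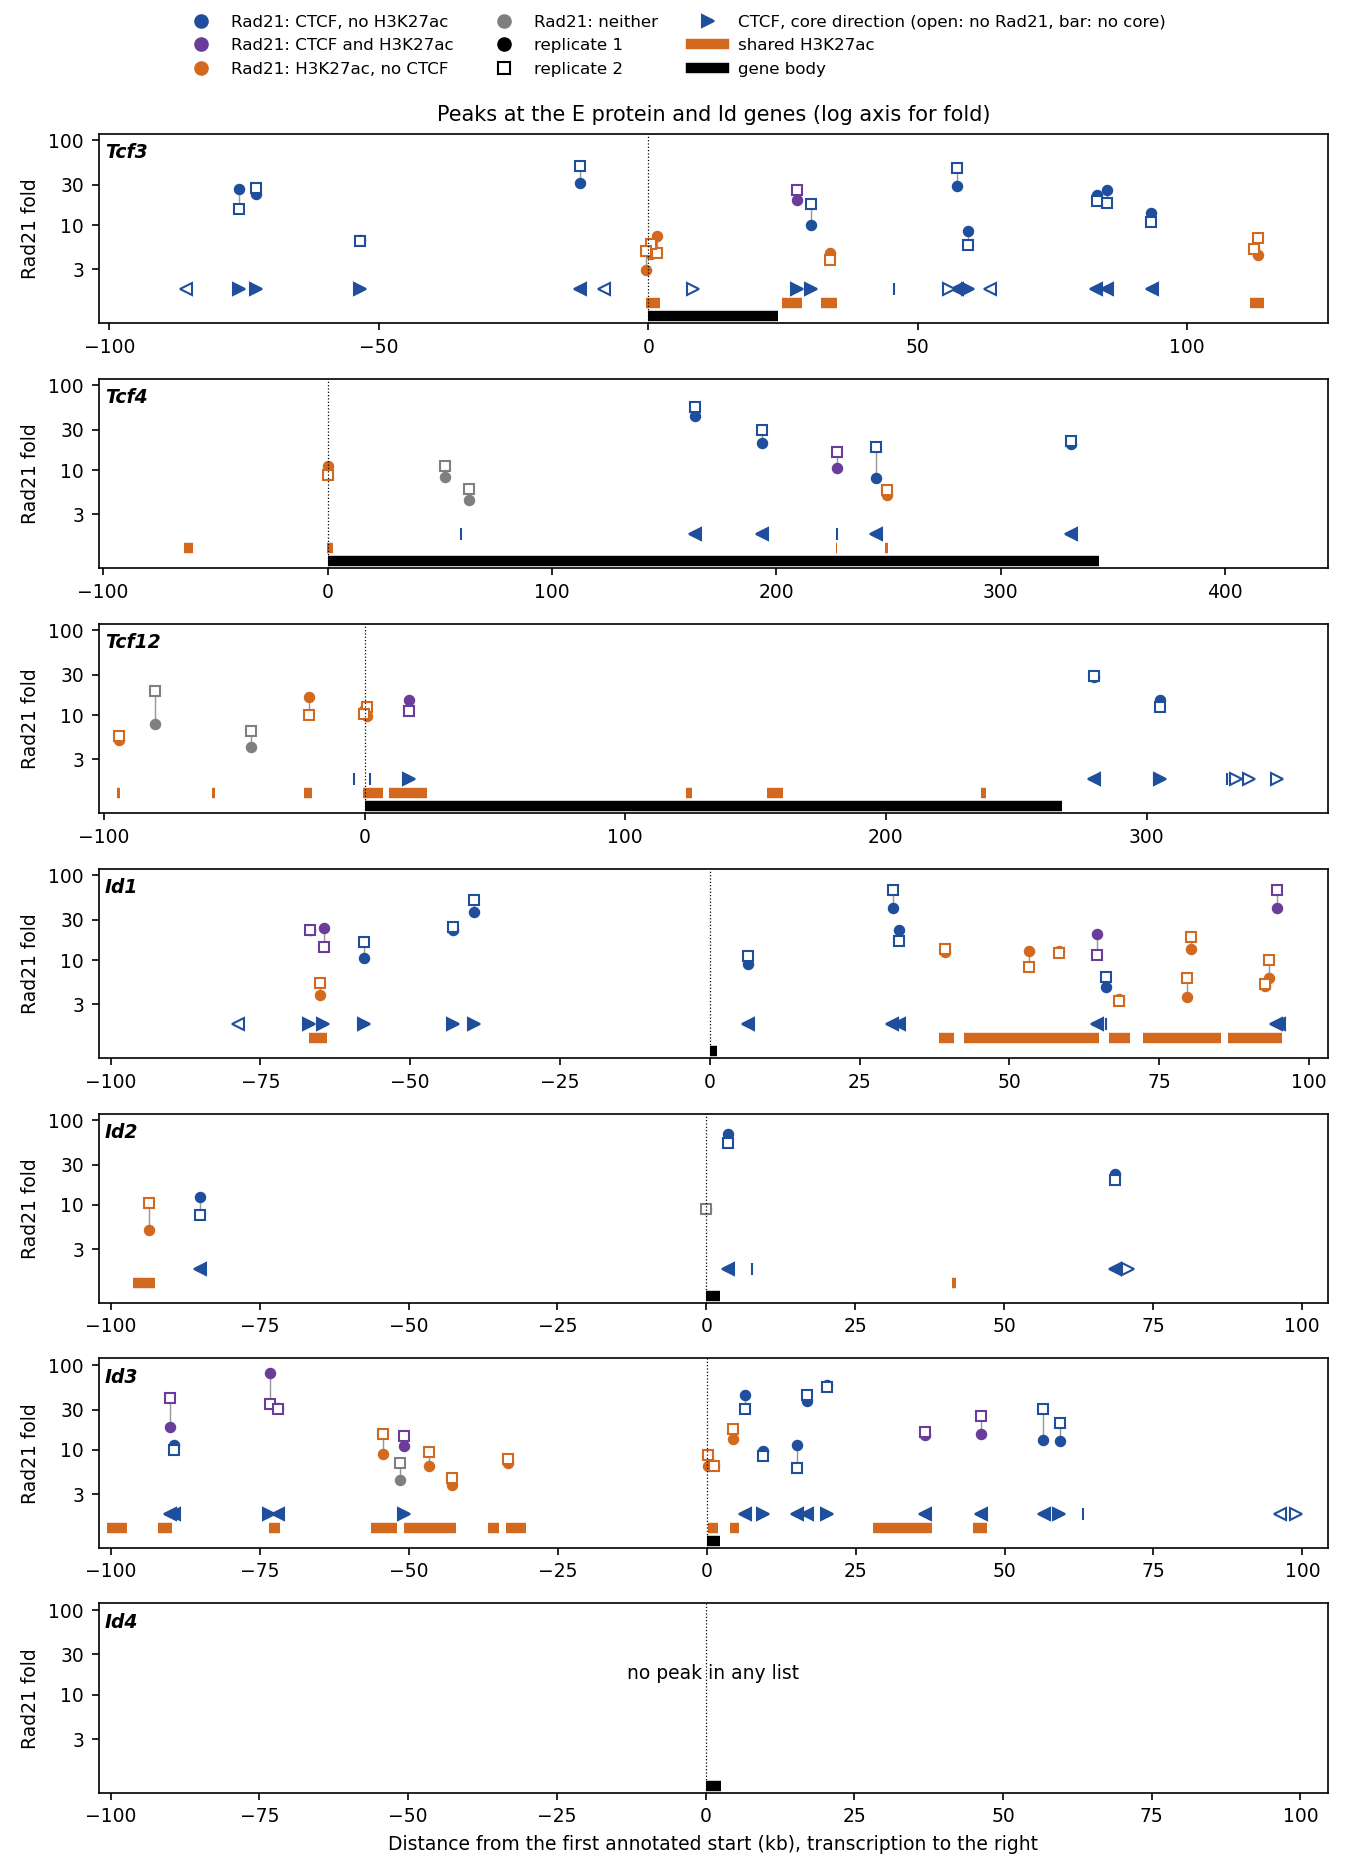
The 7 windows drawn along the distance from the first annotated start in kb, transcription to the right. Circles (replicate 1) and squares (replicate 2) give the fold of each shared Rad21 region on a log axis, coloured by overlap with CTCF and H3K27ac, above CTCF peaks (triangles along their core), shared H3K27ac regions (orange) and the gene (black). The cores of CTCF peaks with Rad21 (filled) face Id1 from both sides, and the Id4 window is empty.

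CTCF halts cohesin in a direction set by its motif, so the strand of the CTCF core consensus was read at each CTCF peak, within 50 bp of the summit and with at most 2 mismatches. The core was found at 58 of 69 CTCF peaks in the windows (84.1%), beside 72.4% of all CTCF peaks. Of the 49 that overlapped Rad21, 46 had it (93.9%, beside 85.4% genome-wide). A core is said to point towards a gene when it reads on the plus strand at lower coordinates or on the minus strand at higher ones. Taking on each side the nearest CTCF peak with Rad21 and a core, both pointed towards the gene at Id1 and Id3 (2 of 7 members, beside 25.7% of all genes). Both pointed away at Tcf3 (27.9% of all genes), and at Tcf12, Tcf4, Id2 and Id4 one pointed each way (46.3%). On both sides of Tcf4 and Id4 and upstream of Tcf12, these peaks lay outside the window, between 148.8 and 972.8 kb from the gene. With 7 genes no difference from the shares of all genes can be read.

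Tcf3, whose E protein acts in V(D)J recombination and in early lymphoid commitment, lies at chr10:79872259-79896392 on the minus strand. Its window held 17 CTCF peaks, 20 and 21 Rad21 peaks (17 shared regions) and 5 H3K27ac peaks in each replicate (4 shared regions). The 3 Rad21 regions at the promoter were low and without CTCF. They lay 1.53 kb downstream of the first start with folds of 7.39 and 4.68, 0.434 kb downstream with 4.56 and 6.03, and 0.422 kb upstream with 2.96 and 4.97. All overlapped the promoter H3K27ac region of 2662 bp, whose folds were 5.28 and 9.50. The coding starts from 79893730 to 79896392 lay within 2 kb of both marks, and the internal one at 79884605 lay within 2 kb of neither.

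Tall CTCF-bound cohesin lay on both sides of Tcf3. The tallest Rad21 region by the lower of both folds lay 12.6 kb upstream with folds of 31.7 and 49.2. The CTCF peak of the highest fold (31.8) lay 57.3 kb downstream of the first start, under Rad21 folds of 29.0 and 47.5. The CTCF-free region with the highest lower fold, 5.42 and 5.27, lay 112 kb downstream at another gene's start. The widest H3K27ac region, 3651 bp over Uqcr11, had folds of 1.83 and 9.40. The cores of both tall sites are shown because they carry the orientation, with the core in capitals, in mm9 (NCBIM37).
Tcf3 core 12.7 kb upstream, plus strand, chr10:79909089-79909117: gcatctgtCCACTAGATGGCGgacgacgc
Tcf3 core 57.3 kb downstream, plus strand, chr10:79839126-79839154: cgctttggCCACACGGGGGCGacagaaga

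Tcf12, which encodes HEB, the E protein most used by double-positive thymocytes, lies at chr9:71692059-71959626 on the minus strand. Its window held 10 CTCF peaks, 12 and 15 Rad21 peaks (9 shared) and 37 and 13 H3K27ac peaks (8 shared). At the long-form start, 2 of the 9 shared regions, both CTCF-free, had folds of 9.66 and 12.3 (0.795 kb downstream) and 11.3 and 10.3 (0.187 kb upstream). The internal start at 71743890 had its nearest shared Rad21 region 63930 bp and its nearest shared H3K27ac region 20665 bp away. Thus the long form's start was marked and the internal start was not.

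Upstream of Tcf12, 21.5 kb away, lay the CTCF-free region with the highest replicate 1 fold of the 7 windows, 16.2, and a fold of 10.0 in replicate 2. It overlapped 2821 bp of H3K27ac with folds of 5.96 and 9.35. The stitched H3K27ac cluster over the start was 24560 bp wide and ranked 508 of 11823 by width, and it held 3 Rad21 regions. In its 2 H3K27ac regions, 14726 and 7717 bp wide, replicate 2 peaks covered 2298 and 2080 bp. The tallest shared region of the window lay downstream of the gene and overlapped CTCF, with Rad21 folds of 28.5 and 29.2, while the CTCF peak of the highest fold in the window (15.3) had no Rad21. The sequences shown are the core of that Rad21-bound site and the 201 bases around the replicate 1 summit of the upstream region, where capitals mark E-boxes.
Tcf12 core past the gene end, plus strand, chr9:71679747-71679775: agtttcggACAGCAGGGGGCGccccggag
Tcf12 CTCF-free summit 21.5 kb upstream, plus strand, chr9:71980972-71981172: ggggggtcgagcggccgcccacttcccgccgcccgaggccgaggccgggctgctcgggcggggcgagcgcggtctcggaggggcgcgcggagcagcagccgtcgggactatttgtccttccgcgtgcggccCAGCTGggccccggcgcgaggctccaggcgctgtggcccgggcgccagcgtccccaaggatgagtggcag

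The length covered by H3K27ac at Tcf12 differed more between the replicates than at nearly all other genes. It was 88861 bp in replicate 1 and 7931 bp in replicate 2, a ratio of 11.2, above 99.1% of 17181 genes with acetylation in both lists (median ratio 1.94). By number of peaks, 37 against 13, 8.28% of genes had at least as large a ratio. The peaks had a median width of 1813 bp in replicate 1 and 432 bp in replicate 2, and all 13 of replicate 2 overlapped one of replicate 1. The 3 regions inside the gene without Rad21 had folds above the list's 90th percentile (7.10) in replicate 2, with 18.2 at 237 kb, 22.3 at 157 kb and 20.4 at 125 kb from the first start. In replicate 1, where that percentile was 7.93, the first had 14.8, the second had 4.20 and the third lay below the list's median of 2.69. The peaks of these 3 regions covered 162, 860 and 369 bp in replicate 2, and 1857, 5856 and 2314 bp in replicate 1. The widest shared H3K27ac region, 14726 bp, lay inside the gene 16.6 kb from the first start, with folds of 4.06 and 18.1. At Tcf4 the covered lengths were 16040 and 5358 bp, and at Id2 12435 and 2842 bp, ratios of 2.99 and 4.38. At Id1 and Id3 the ratio was 1.71, and at Tcf3 the lengths were 12071 and 8046 bp. What set these differences was not tested.

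Tcf4, the E protein gene best known for its role in plasmacytoid dendritic cells, lies at chr18:69503800-69847621 on the plus strand. It was the longest member, and its window held 6 CTCF peaks, 9 and 11 Rad21 peaks (9 shared) and 19 and 6 H3K27ac peaks (4 shared). All 9 shared Rad21 regions lay inside the gene. Both sets of starts were marked: the region 0.294 kb from the first start had Rad21 folds of 11.2 and 8.78, and the region at the internal starts 69753071 and 69753080, 249 kb downstream, had folds of 5.02 and 5.77. H3K27ac folds were 3.30 and 5.23 at the first and 1.70 and 2.02 at the second. Neither had CTCF, the nearest to the internal starts being 4690 bp away.

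Inside Tcf4, CTCF and Rad21 overlapped at 5 sites. The tallest, at chr18:69667407-69667781 and 164 kb from the first start, had Rad21 folds of 43.6 and 56.2. The CTCF peak of the highest fold (14.6) lay 193 kb from the start under Rad21 folds of 20.8 and 30.1. All 4 sites with a core read against the direction of transcription. The widest H3K27ac region, 3855 bp, lay 61.8 kb upstream with folds of 3.07 and 10.5 and had no Rad21. The nearest Rad21 region outside the window was 191 kb away, so the shared cohesin of the window lay within the gene body and none in either flank.

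Among the Id genes, each compact and of a single coding start, cohesin and acetylation were found in 4 different arrangements. Id2 had cohesin at the start without acetylation, Id3 had both at the start and many sites around it, Id1 had sites around it and no shared region at the start, and Id4 had no peak at all.

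Id2, the inhibitor needed for innate lymphoid and natural killer cells, lies at chr12:25778666-25780957 on the minus strand. Its window held 5 CTCF peaks, 8 Rad21 peaks in each replicate (5 shared) and 11 and 2 H3K27ac peaks (2 shared). A CTCF-free Rad21 region at chr12:25780796-25781419 covered the start, with folds of 8.93 and 9.04. No H3K27ac peak of either list lay within 2 kb, and the nearest shared one lay 41182 bp away. Just past the gene, 3.62 kb from the start, stood a tall Rad21 region with folds of 68.6 and 53.3. These lay above 99.8% and 97.3% of all shared regions in replicates 1 and 2. The CTCF peak under it had a fold of 13.4. Its core lay 1.35 kb beyond the gene end and pointed at the gene. The widest H3K27ac region, 3721 bp, lay 94.4 kb upstream with folds of 4.62 and 2.84.

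The sequences shown are that core and the 201 bases around the replicate 1 summit at the Id2 start, all upstream of transcription, with E-boxes in capitals. The window holds 1 CAGCTG and 1 other CANNTG.
Id2 core 3.64 kb from the start, plus strand, chr12:25777283-25777311: catatttgCCAGAAGGTGGCGctcggcct
Id2 CTCF-free summit at the start, plus strand, chr12:25781044-25781244: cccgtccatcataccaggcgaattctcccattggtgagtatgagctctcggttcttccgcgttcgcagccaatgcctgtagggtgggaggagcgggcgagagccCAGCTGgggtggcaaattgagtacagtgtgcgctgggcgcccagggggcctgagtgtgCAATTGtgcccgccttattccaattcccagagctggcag

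Id3, the inhibitor that T cell receptor signals raise, lies at chr4:135699412-135701670 on the plus strand. Its window held 17 CTCF peaks, 26 and 37 Rad21 peaks (22 shared) and 14 and 12 H3K27ac peaks (11 shared). At the gene, CTCF-free Rad21 had folds of 6.46 and 8.78 at 0.303 kb and 6.64 and 6.44 at 1.24 kb. The H3K27ac region there, 1701 bp, was weak, with folds of 2.39 and 2.19 and −log10 q of 1.87 and 1.03. The tallest CTCF-free region of the window lay 4.39 kb downstream, with Rad21 folds of 13.4 and 17.9 and H3K27ac folds of 2.65 and 1.71.

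Tall CTCF-bound cohesin surrounded Id3. Of 11 Rad21 regions in the 7 windows with a fold of at least 30 in both replicates, all CTCF-bound, 5 lay at Id3. Its window also held the most shared Rad21 regions, 22 of 82. The share of all shared regions of the genome with such folds is not given. The tallest at Id3 by the lower fold lay 20.2 kb downstream, with folds of 58.0 and 54.7. The CTCF peak of the highest fold (17.9) lay 73.4 kb upstream, under Rad21 folds of 80.9 and 34.6, the largest replicate gap among those 5. Between that site and the gene lay a stitched H3K27ac cluster of 25979 bp (rank 443 of 11823). In its 4 H3K27ac regions, 4429, 8725, 1948 and 3281 bp wide, replicate 2 peaks covered 4288, 1938, 270 and 1079 bp. The cluster held 6 Rad21 regions, 5 of them without CTCF. The CTCF-free ones had folds between 3.90 and 8.93 in replicate 1 and between 4.68 and 15.5 in replicate 2. The widest H3K27ac region, 9927 bp, lay 33.0 kb downstream at E2f2, with folds of 5.35 and 2.22. The nearest sites that face the gene are 50.8 kb upstream and 4.18 kb past the gene end, and their cores are shown with those of the tall outer sites, which both read on the plus strand, and with the CTCF-free summit at 4.39 kb, where capitals mark the E-box.
Id3 core 50.8 kb upstream, plus strand, chr4:135648582-135648610: tgtggataCCAGAAGAGGGCGtcagatgc
Id3 core 6.44 kb downstream, minus strand, chr4:135705828-135705856: catggctgCCACAAGAGGGCGctggatcc
Id3 core 73.4 kb upstream, plus strand, chr4:135626023-135626051: cgtttccgCCAGCAGGAGGCAccagcgaa
Id3 core 20.2 kb downstream, plus strand, chr4:135719580-135719608: gcagctgcCCTCTAGATGGCGcccttccc
Id3 CTCF-free summit 4.39 kb downstream, plus strand, chr4:135703856-135704056: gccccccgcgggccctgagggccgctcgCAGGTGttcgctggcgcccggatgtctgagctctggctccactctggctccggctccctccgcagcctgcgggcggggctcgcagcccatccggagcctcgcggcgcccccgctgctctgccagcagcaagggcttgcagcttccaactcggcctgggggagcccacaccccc

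Id1, an inhibitor studied chiefly in stem cells and vessels, lies at chr2:152561987-152563146 on the plus strand. Its window held 14 CTCF peaks, 23 and 27 Rad21 peaks (20 shared) and 10 and 14 H3K27ac peaks (6 shared). Near the start itself there was 1 Rad21 peak, in replicate 2 only, 787 bp upstream with a fold of 7.21, and no H3K27ac. The nearest shared H3K27ac region lay 38274 bp away. The acetylation of the window lay at neighbours: a cluster of 57176 bp over Bcl2l1, which encodes a survival factor of double-positive thymocytes, ranked 67 of 11823 and held 11 Rad21 regions, 8 of them without CTCF. The CTCF-free region there with the tallest lower fold had 13.3 and 18.9, and the widest H3K27ac region, 22514 bp, had folds of 2.36 and 7.83. Replicate 2 peaks covered 10406 bp of that H3K27ac region. The region over the Bcl2l1 promoter, 94.6 kb from Id1, had Rad21 folds of 41.4 and 67.8, the tallest of the window.

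CTCF cores flanked Id1 in one sense. All 5 CTCF peaks upstream with Rad21 and a core read on the plus strand, and all 6 downstream read on the minus strand, so that 11 of 11 pointed at the gene. At Id3 it was 2 of 5 upstream and 6 of 9 downstream, and at Tcf3 3 of 4 and 4 of 7. The share of all genes with such a run of cores is not given. The Id1 peaks are not all separate sites, since those 94.5 and 95.0 kb downstream lay in the same Rad21 region. Several upstream peaks lay in H13 and several downstream ones in Bcl2l1, so the run describes the locus and not Id1 alone. The CTCF peak of the highest fold at Id1 (31.4) lay 30.4 kb downstream, under Rad21 folds of 40.5 and 66.8. Cores of the nearest sites on either side and of that tall site are shown, each on its own strand with the core in capitals.
Id1 core 39.3 kb upstream, plus strand, chr2:152522674-152522702: ccctgcggCCACCAGGTGGCGggcttgcc
Id1 core 6.41 kb downstream, minus strand, chr2:152568349-152568377: cagttcttCCAAGAGGGGGCGcgagtgga
Id1 core 30.4 kb downstream, minus strand, chr2:152592399-152592427: gagttttgCCGGTAGAGGGCGccggcgag

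Id4, an inhibitor of neural and mammary progenitors, lies at chr13:48356796-48359405 on the plus strand. Its window held no peak of any list, as was found for 9.27% of all protein-coding genes, 2070 in number. At the promoter alone, 45.9% of genes had no peak of any list. The nearest CTCF peak was 200.3 kb downstream of the gene, with a fold of 8.69. The nearest Rad21 peak was 200.3 kb away in replicate 1 (fold 5.42) and 168.0 kb away, upstream, in replicate 2 (fold 3.58). The nearest H3K27ac peaks were 248.6 and 248.9 kb away. A window of 200 kb on each side still held no shared Rad21 region.

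Over the 82 shared Rad21 regions of the windows, 47 had CTCF (57.3%, beside 65.9% of all shared regions) and 35 did not (42.7%, beside 34.1%). CTCF without H3K27ac was found in 34 and CTCF with H3K27ac in 13 (15.9%, beside 12.4%). H3K27ac without CTCF was found in 29 (35.4%, beside 24.6%) and neither mark in 6 (7.32%, beside 9.54%). Of the CTCF-free regions 82.9% thus overlapped H3K27ac, beside 72% genome-wide. Where all lists were held to a −log10 q of at least 5, 13.3% of those in the windows did. The genome-wide share at that limit is not given, so the 13.3% is not to be set beside the 72%. The E protein windows had 16 CTCF-free regions of 35 and the Id windows 19 of 47. At Tcf12 6 of 9 were CTCF-free. At Tcf3 it was 6 of 17, at Tcf4 4 of 9, at Id1 9 of 20, at Id2 2 of 5 and at Id3 8 of 22. In turn, 49 of 69 CTCF peaks overlapped shared Rad21, beside 58.2% of all CTCF peaks, and 42 had a −log10 q of at least 5, beside 50.5%. Of 35 shared H3K27ac regions 8 had no shared Rad21, beside 50.7% of all shared H3K27ac regions.

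**Figure D4:**
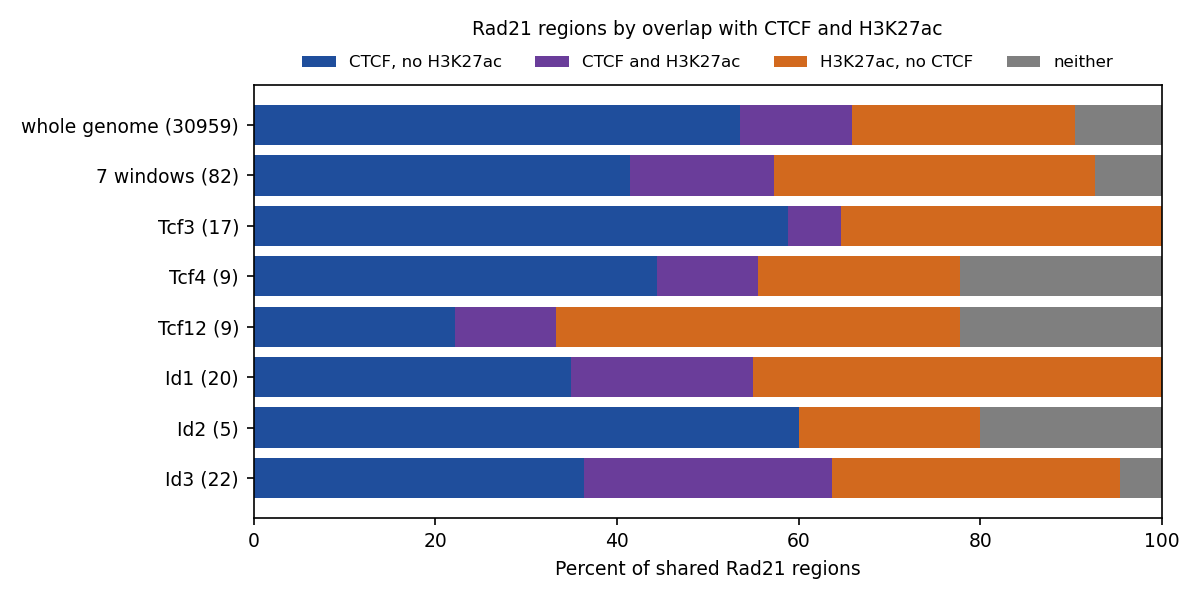
Percent of shared Rad21 regions with CTCF, H3K27ac, both or neither, for the genome, for the 7 windows together and for each member with regions (number in brackets). Tcf12 has the smallest CTCF-bound share (3 of 9 regions).

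CTCF-bound cohesin was the taller kind at these genes. Median Rad21 folds were 21.6 and 19.4 in replicates 1 and 2 for regions with CTCF alone, and 19.6 and 22.9 with CTCF and H3K27ac. They were 6.46 and 7.77 with H3K27ac alone and 6.10 and 8.03 with neither. Genome-wide, the medians were 13.1 and 15.2 with CTCF alone and 5.96 and 7.31 with H3K27ac alone. The tallest CTCF-free folds in the windows were 16.2 in replicate 1 and 19.1 in replicate 2, and CTCF-bound regions reached down to 4.80 and 5.81, so the classes overlapped.

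The Rad21 replicates gave these sites similar heights. A partner in the other list was found for 87.8% of the 98 peaks of replicate 1 and for 70.6% of the 119 of replicate 2, beside 83.0% and 65.1% genome-wide. Peaks without a partner had median folds between 4.23 and 6.55 at the members that had any. Over the 82 shared regions, 76 differed by less than 2-fold, the largest ratio was 2.46, and Spearman's rho between the replicates' folds was 0.869 (0.773 over all shared regions). These points share 2 libraries and their backgrounds. For H3K27ac, 36.5% of the 96 peaks of replicate 1 and 92.3% of the 52 of replicate 2 had a partner, beside 42.0% and 74.8% genome-wide.

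**Figure D5:**
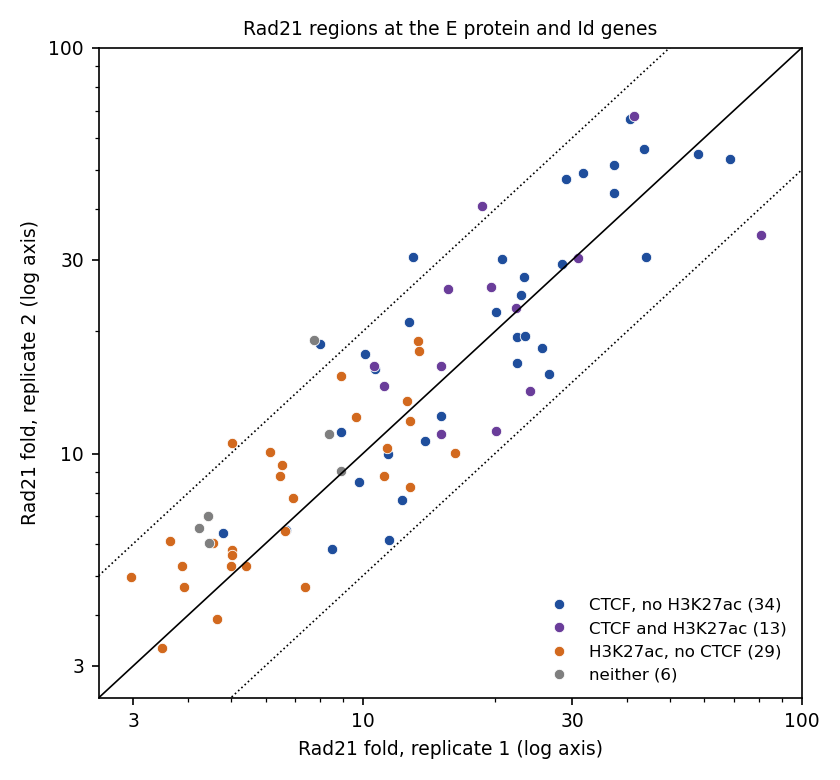
Rad21 fold in replicate 1 against replicate 2 (log axes) for the 82 shared regions, by overlap with CTCF and H3K27ac; the line marks equal folds and the dotted lines a 2-fold difference. CTCF-bound regions fill the upper right, and 76 of 82 lie between the dotted lines.

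Since E proteins bind E-boxes, the letters within 100 bp of the Rad21 summits were searched on both strands. The general E-box was written as CANNTG. A first specific form was the palindrome CAGCTG, which also matches the general one. The other specific form was CAGGTG, which also matches the general one and is found on the opposite strand under its reverse complement. Among the 29 regions with H3K27ac and without CTCF, CAGCTG or CAGGTG was present in 17 around the summit of replicate 1 (58.6%) and in 14 around that of replicate 2 (48.3%). All regions of this class had it in 40.2% and 40.8%. CAGCTG was present in 37.9% and 34.5% (21.7% and 22.4% genome-wide), CAGGTG in 34.5% of both (24.9% and 24.8%) and CANNTG in 72.4% and 75.9% (65.6% and 66.5%). Around CTCF-bound summits either of the 2 specific forms was present in 34.0% and 36.2%, beside 31.5% and 31.6%. These 29 regions include the Bcl2l1 cluster, and no E protein was profiled, so a match is a matter of letters only.

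Genes of the wider pathway were read at their promoters. Of 12 partners and cofactors of E proteins, 8 had shared H3K27ac, 6 shared Rad21 and 7 CTCF, beside 40.9%, 29.7% and 23.7% of all genes. Tal1 and Lmo2, which join E proteins in early progenitors, had no peak, and Lmo1 had CTCF alone (fold 10.6). Lyl1, a relative of Tal1, had CTCF (6.18), Rad21 (5.58 and 7.52) and H3K27ac (4.92 and 2.86). Ldb1, a bridging cofactor, had Rad21 (11.2 and 13.4) and H3K27ac (2.07 and 1.99), and Gata3, a T lineage factor, had CTCF (6.84), Rad21 (13.9 and 18.0) and H3K27ac (3.41 and 2.61). Rad21 without CTCF was found at 1 of 12, beside 11.9% of all genes.

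Of 12 genes known to be bound or activated by E proteins in thymocytes, 11 had shared Rad21, 10 shared H3K27ac and 4 CTCF, beside 29.7%, 40.9% and 23.7% of all genes. Rad21 without CTCF was found at 7, beside 11.9%. At Ptcra, which encodes the alpha chain of the pre-T cell receptor, the Rad21 folds were 5.58 and 7.61. The recombination genes Rag1 and Rag2 had 9.07 and 10.0, and 12.3 and 10.8. The coreceptor gene Cd4 had 12.4 and 21.1, and Cd3e, of the receptor complex, had 13.1 and 10.0. These 5 genes also had shared H3K27ac and none had CTCF.

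Of 12 genes of the signals upstream of Id genes, 8 had shared Rad21, 9 shared H3K27ac and 4 CTCF, beside the same 29.7%, 40.9% and 23.7%. The Egr genes, which act on Id3, differed from one another. Egr2 had CTCF (15.8), Rad21 (25.4 and 29.5) and H3K27ac (4.67 and 4.76). Egr1 had CTCF (7.20) and Rad21 (12.8 and 10.7), with H3K27ac in replicate 2 only (2.44), and Egr3 had a Rad21 peak in replicate 2 only (6.03). Among calcium and TGF-beta genes, Nfatc1 had CTCF (7.90), Rad21 (11.2 and 14.3) and H3K27ac (2.77 and 2.28), Nfatc2 had H3K27ac (1.70 and 1.87) with Rad21 in replicate 2 only (8.78), and Tgfbr1 had CTCF (11.4), tall Rad21 (59.2 and 36.0) and H3K27ac in both replicates.

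Genes most like Tcf3 and Id3, the densest member of each group, were found from 10 values per gene (density and promoter value in each list, as percentiles over all genes). Closest to Tcf3 were Srrm2, Kdm2a and Nfkbid, at distances of 8.80, 15.0 and 16.7, where the median over all genes was 126. Closest to Id3 were Birc5, Fam100b and Rfx1, at 9.59, 9.82 and 10.1, where the median was 138. Birc5 had 23 shared Rad21 regions in its window, Fam100b 17 and Rfx1 21, beside 22 at Id3.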

How the data were processed

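ChIP-seq peak lists of CTCF (1 library), Rad21 (2) and H3K27ac (2) were used, grouped by the labels. The submitters' processing notes give mm9 as the build and name CASAVA 1.82 and 1.84, Bowtie 1.0.0, Bowtie2 2.3.2, MACS2 2.1.0, HiC-Pro 2.7.8 and Juicer 0.7.5 without roles. How peaks were thresholded, and against which control, is not given in the sources used here. The fold of a peak is the ratio over local background from the authors' caller. The −log10 p and q values are also as deposited by the authors. The score the authors deposited was not used. The summit offset in bp was used as deposited in the narrow lists. Lists carry no counts, so depth and the precision it gives are unknown.

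Only peaks of the autosomes and X were used. Peaks with the same coordinates were counted once at the highest fold. Regions with overlapping peaks (at least 1 bp) of both replicates were merged and called shared, and H3K27ac regions within 12000 bp were stitched. Genes were those of GENCODE vM1 on NCBIM37, and 0 peaks ran past a chromosome end. Promoters were 2000 bp on either side of starts of protein-coding transcripts of 22342 genes and of Ptcra. The plan had named any annotated start. The CTCF core consensus was searched within 50 bp and E-boxes within 100 bp of summits. Sequences were read from NCBIM37. Analysis used Python 3.11.15, numpy 2.4.6 and pandas 2.3.3, and the code was tested on simulated data with planted overlaps and motifs.

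With 1 condition and 1 or 2 lists a target, no test between groups was possible, and members are described beside all genes or regions. The members, lists and settings were chosen with earlier results of these data known. Of each pathway list the first 6 genes were named, except 1 target gene. That gene, the B cell marker list and 1 CTCF core at Tcf12 are not reported here. In each window the CTCF peak of the highest fold, the CTCF-bound and CTCF-free Rad21 regions with the highest lower fold and the widest H3K27ac region were named, and for Tcf3 and Id3 the 3 genes at the smallest Euclidean distance. Any other region or gene was chosen after seeing its values. Alternatives were other promoter and flank lengths, an overlap of 50% of the shorter region, a −log10 q minimum of 5, stitching within 3000 bp, 1 mismatch, E-boxes within 50 bp, each replicate left out, and Rad21 and H3K27ac lists of the same number matched.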

Additional observations from a re-analysis of the deposited data

How the results depend on the processing

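No paired analysis was possible because no result comes from a test between groups: the Rad21 and H3K27ac lists share replicate numbers but hold no counts. With flanks of 50 kb or 200 kb the windows held 22 or 63 shared H3K27ac regions in place of 35 and 36 or 109 CTCF peaks in place of 69, and with 50 kb 46 shared Rad21 regions in place of 82. With 200 kb, 75.9% of CTCF-free regions had H3K27ac in place of 82.9%. With promoters of 5000 bp, 4 members had CTCF (Tcf3, Tcf4, Tcf12 and Id2) in place of 0. The CTCF peaks of Tcf3 and Tcf12 were weak, with −log10 q of 0.656 and 0. At a −log10 q of at least 5, 42 CTCF peaks were left and 95.2% had the core in place of 84.1%. Rad21 was then at 4 member promoters, Tcf3 being lost, and 66.7% of CTCF-free regions had H3K27ac. With that limit in all lists, 7 H3K27ac regions were left, 13.3% of CTCF-free regions had one, and 2 member promoters did (Tcf3 and Tcf12). The H3K27ac results therefore rest on peaks of low −log10 q. With Rad21 and H3K27ac lists matched by number, 51.0% and 42.0% of Rad21 peaks in lists 1 and 2 had CTCF, and 79.2% and 66.7% of those without it had H3K27ac. With 1 mismatch 55.1% of CTCF peaks had the core, beside 51.8% of all CTCF peaks. Within 50 bp, 36.2% of acetylated CTCF-free summits had CAGCTG or CAGGTG in place of 53.4% (mean of both replicates). Genome-wide, the share of that class within 50 bp was 25.2% in replicate 1 and 26.2% in replicate 2.

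Leaving out a replicate gave 52 to 96 H3K27ac regions, 42.0% to 51.0% of Rad21 peaks with CTCF in place of 57.3%, and 72.5% to 82.9% of CTCF-free ones with H3K27ac. Without Rad21 replicate 1 Id1 joined the members with promoter Rad21. An overlap of 50% of the shorter region, promoters of 500 bp and stitching within 3000 bp left the results they were run on within 1.5-fold for counts or within the replicates' SD.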

Other observations

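Of all shared H3K27ac regions of the genome, 50.7% had no shared Rad21. In the windows it was 4 of 8 at Tcf12 and 1 of 2 at Id2, near that share. It was 2 of 11 at Id3 and 1 of 4 at Tcf4. At Tcf3 and Id1 each acetylated region, 4 and 6 in number, overlapped at least 1. The H3K27ac fold was higher in replicate 2 at 8 of 8 regions of Tcf12, 4 of 4 of Tcf3 and 3 of 4 of Tcf4. It was higher there at 3 of 6 of Id1, 1 of 2 of Id2 and 3 of 11 of Id3. The lists as wholes had median folds of 2.69 and 2.88 over all peaks, and the share over all shared regions is not given. A region's fold is the highest of its peaks, and the widest Tcf12 region held 1 replicate 1 peak and 5 of replicate 2. Those peaks covered 14726 bp in replicate 1 and 2298 bp in replicate 2, so the folds compare calls of unlike length.

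Acetylated promoters of other genes lay on both sides of Id3. The Rad21 region 89.8 kb from the gene, at the start of Rpl11, a ribosomal protein gene, had folds of 18.6 and 40.8 with CTCF and H3K27ac. The region 36.7 kb downstream, 652 bp from the start of E2f2, a cell cycle regulator, had 15.1 and 16.4 with both marks, and the stitched H3K27ac cluster there was 19149 bp wide.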
